A study of Ovis aries with 36 samples.

Results

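FREM2 and TMEM2 were described across 9 muscles of the lamb, as 2 of 31136 loci assembled from the RNA-Seq reads. Both encode proteins linked to the extracellular matrix. They were chosen by their place among the genes that the study listed as differing most between Semitendinosus (ST) and Supraspinatus (SS), so the contrast of ST with SS is given here as a description with no test. The same holds for every pair of muscles that includes ST or SS. Tests were made only among the 7 other muscles and among the animals. The test among animals used all 36 samples, including those of ST and SS.

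FREM2 is a large membrane-anchored protein of the FRAS1/FREM family, whose members assemble below epithelia and hold the basement membrane to the tissue beneath it. Loss of the family in development is known for blistering of the skin and for fused eyelids. TMEM2, now named CEMIP2, is a transmembrane protein of the cell surface that takes part in the breakdown of hyaluronan, a long sugar polymer of the matrix between cells. Basement membrane surrounds each muscle fibre, and hyaluronan fills the connective tissue between fibres and fascicles.

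The study compared muscles that differ in fibre type and meat quality. RNA was sequenced from the mid belly of SS in the shoulder, of Psoas major (PM) and Longissimus lumborum (LL) in the loin, and of 6 hindlimb muscles, which were ST, Semimembranosus (SM), Adductor (AD), Rectus femoris (RF), Gluteus medius (GM) and cranial Gluteobiceps (GB). Each muscle was sampled once in each of 4 unrelated Poll Dorset cross-bred lambs slaughtered at 14 months, giving 36 samples. The lambs came from different flocks and were raised on grassland, with soy crop and sorghum grain as a supplement after weaning, and no experimental treatment is given. Thus each group is 1 muscle with n = 4 animals, and each animal gave all 9 muscles.

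Depth was 3699148 to 6427422 counts per sample, and the 4 most counted loci, which hold no Ensembl gene, took 65.7% to 78.3% of them. Animal 1 had the lowest total in 9 of 9 muscles. Levels are given as CPM, the counts relative to a library size scaled by the trimmed mean of M-values (TMM). A count of 3, taken as the floor, was worth 0.366 to 1.03 CPM depending on the sample. Intervals and the floor cover counting error only. In bulk tissue, fewer cells of a type and less RNA per cell cannot be told apart. Of 6 general skeletal muscle fibre markers, 0 could be paired with a locus, so the tissue was checked only through 6 of 9 slow fibre markers, whose summed level was 86.7 CPM in the lowest sample and 1484 CPM in the highest.

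FREM2 was the Ensembl gene ENSOARG00000009812 on chromosome 10, from 23560959 to 23715430 of Oar_v3.1, a span of 154472 bases. It gathered 742 counts over the 36 samples, with a median of 19 per sample, a highest count of 45 and 1 sample at 0. TMEM2 was ENSOARG00000012805 on chromosome 2, from 64359425 to 64440445, a span of 81021 bases, and gathered 3528 counts, with a median of 98 and a range of 36 to 167 per sample. No other locus overlapped either gene. Among the 12461 loci tested, the mean level of FREM2 lay at the 50.2nd percentile and that of TMEM2 at the 87.5th percentile, on a scale not divided by transcript length, so the levels of these genes were not compared with each other.

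Neighbouring loci added few reads. The nearest locus before FREM2 lay 12021 bases away with 5 counts in all samples together, and the nearest after it lay 71200 bases away with 2 counts. The nearest locus before TMEM2 was 32405 bases away with 0 counts in 36 samples. An assembled locus with no Ensembl gene began 749 bases after the end of TMEM2 and spanned 1219 bases, with 106 counts in all and 0 to 13 per sample. Its mean level was highest in LL, at 1.17 ± 0.783 CPM (SD, n = 4), and lowest in RF, at 0.274 ± 0.184 CPM. It did not pass the filter on low counts, and whether it belongs to the TMEM2 transcript was not tested.

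FREM2 was lowest in ST and highest in SS and PM. In ST the level was 0 CPM in animal 1, 0.875 in animal 2, 1.82 in animal 3 and 0.647 in animal 4, from 0, 4, 11 and 3 counts. ST was the lowest of the 9 muscles in 4 of 4 animals, and its levels in animals 1 and 4 did not exceed the floor of 3 counts. In SS the level was 3.44 CPM, 3.93 CPM, 8.0 CPM and 6.77 CPM in animals 1 to 4, from 15, 27, 45 and 35 counts. Every SS sample lay above every ST sample, with means of 5.54 ± 2.2 CPM in SS and 0.836 ± 0.755 CPM in ST (SD, n = 4). The log2FC of ST against SS was -2.62, a level 6.15-fold lower in ST, and the mean difference within animals was -2.50 ± 0.384 (SE, n = 4) on the log2 scale. ST also lay below GB, RF, LL, AD and PM without overlap, and its range overlapped those of SM and GM, although ST was the lower in each animal. Among these muscles other than SM, the log2FC of ST ran from -1.61 against LL to -2.64 against PM. The summed counts were 122 in SS (95% Poisson interval 101 to 146) and 18 in ST (10.7 to 28.4).

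PM stood beside SS, although PM was not used to choose the gene. FREM2 in PM was 3.13 CPM, 5.62 CPM, 7.25 CPM and 5.88 CPM in animals 1 to 4, with a mean of 5.47 ± 1.71 CPM. The difference of SS from PM was -0.02 on the log2 scale, and within animals it was -0.01 ± 0.158 (SE, n = 4), with SS the higher in 3 of 4 animals. SS gave the highest level of FREM2 in animals 1, 3 and 4, and PM gave the highest in animal 2.

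SM was nearest to ST. FREM2 in SM was 0.342 CPM, 1.71 CPM, 3.21 CPM and 2.54 CPM in animals 1 to 4, from 1, 12, 12 and 16 counts, with a mean of 1.95 ± 1.24 CPM. SM was the second lowest muscle in 3 of 4 animals and the third lowest in animal 4, where LL was lower. The levels of SM and ST overlapped between animals, but SM was above ST in 4 of 4 animals, by 0.99 ± 0.190 (SE, n = 4) on the log2 scale. In animal 1 this order rested on 1 count in SM against 0 in ST, both below the floor of 3 counts. The log2 difference of animal 1, which enters the mean and SE above, was thus set largely by the prior count of 2. The log2FC of SM against ST was 1.19 over all animals. It was 1.12, 1.27, 1.61 and 0.92 without animals 1, 2, 3 and 4 in turn.

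The 5 other muscles lay between SM and PM. FREM2 in LL was 2.33 CPM, 2.33 CPM, 4.29 CPM and 1.91 CPM in animals 1 to 4, with a mean of 2.72 ± 1.07 CPM. In GM it was 1.43 CPM, 3.30 CPM, 5.10 CPM and 3.17 CPM, with a mean of 3.25 ± 1.5 CPM. In both muscles animal 3 was the highest, and the samples of LL and GM overlapped. FREM2 in RF was 3.16 CPM, 3.07 CPM, 4.01 CPM and 4.92 CPM, with a mean of 3.79 ± 0.863 CPM. In AD it was 2.37 CPM, 4.08 CPM, 5.67 CPM and 4.20 CPM, with a mean of 4.08 ± 1.35 CPM. RF and AD overlapped over most of their ranges. In GB it was 2.84 CPM, 2.68 CPM, 7.89 CPM and 2.82 CPM, with a mean of 4.06 ± 2.55 CPM. Animal 3 stood far above the other GB samples, whose mean was 2.78 ± 0.0918 CPM (SD, n = 3). These came from 16, 19 and 20 counts, so this SD is smaller than counting error and understates the spread.

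**Figure D1:**
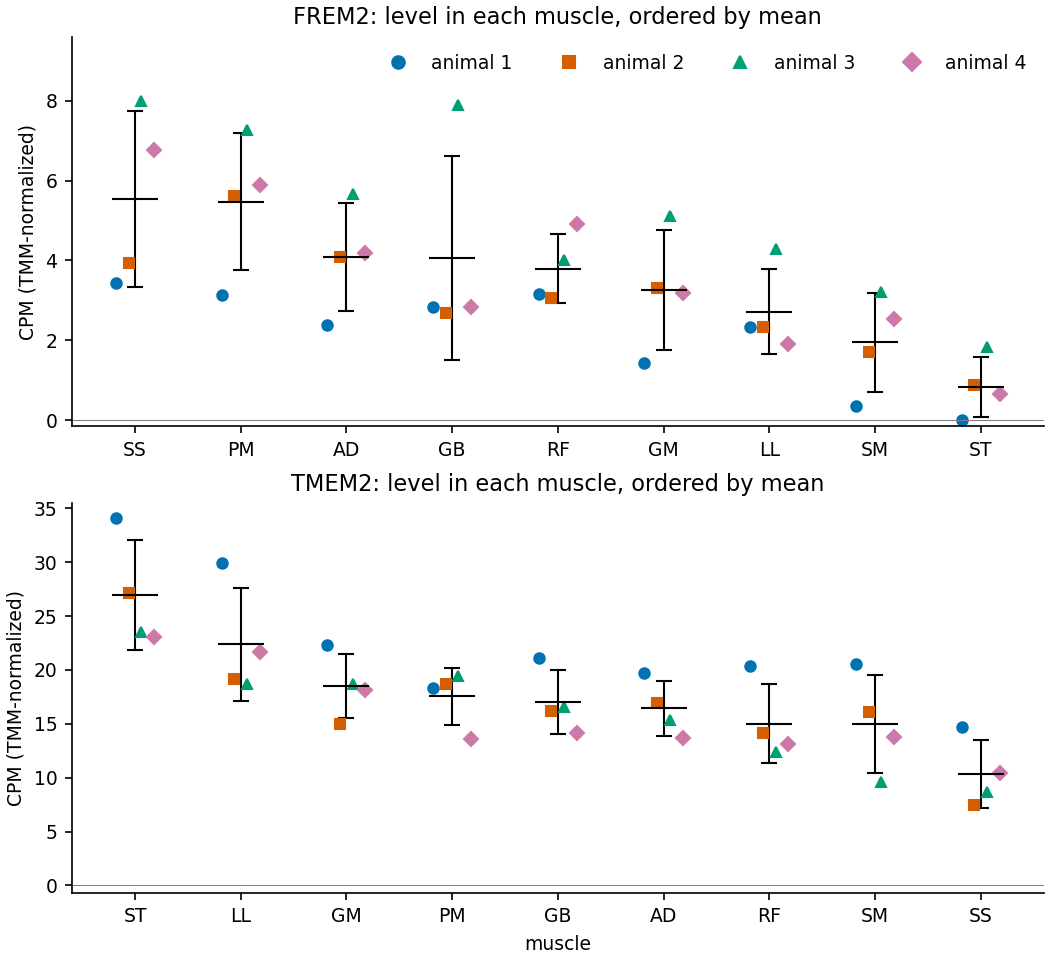
Levels of FREM2 (top) and TMEM2 (bottom) in CPM on a linear axis, with 1 point per animal and muscle, the mean as a dash and the SD (n = 4) as bars, muscles ordered by their mean. FREM2 ran from 5.54 CPM in SS to 0.836 CPM in ST, and TMEM2 from 27.0 CPM in ST to 10.3 CPM in SS.

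TMEM2 had its extremes in the same muscles as FREM2, with the opposite order. In ST the level was 34.1 CPM, 27.1 CPM, 23.5 CPM and 23.1 CPM in animals 1 to 4, with a mean of 27.0 ± 5.11 CPM (SD, n = 4). In SS it was 14.7 CPM, 7.43 CPM, 8.71 CPM and 10.4 CPM, with a mean of 10.3 ± 3.17 CPM. Every ST sample lay above every SS sample, and ST was the highest and SS the lowest of the 9 muscles in 4 of 4 animals. The log2FC of ST against SS was 1.40, a level 2.65-fold higher in ST, and the mean difference within animals was 1.38 ± 0.157 (SE, n = 4). Against the 7 other muscles ST was higher in 4 of 4 animals, with a log2FC of 0.27 for LL to 0.85 for RF, and it overlapped with LL alone. SS was lower than each of these muscles in 4 of 4 animals, and its range was separate from those of GM and LL. Opposite signs of both genes in ST against SS were already given in the study's list, so they are no separate result. Places against the other muscles are described next.

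LL followed ST. TMEM2 in LL was 30.0 CPM, 19.1 CPM, 18.7 CPM and 21.7 CPM in animals 1 to 4, with a mean of 22.4 ± 5.23 CPM. LL was the second highest muscle in animals 1, 2 and 4, and in animal 3 PM was second. The samples of ST and LL overlapped, but ST was higher in 4 of 4 animals, by 0.27 ± 0.0883 (SE, n = 4) on the log2 scale. SS lay below LL in 4 of 4 animals without overlap, with a log2FC of -1.13.

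The 6 remaining muscles lay in a narrow band, with means from 15.0 to 18.5 CPM. TMEM2 in GM was 22.3 CPM, 15.0 CPM, 18.7 CPM and 18.2 CPM in animals 1 to 4, with a mean of 18.5 ± 2.99 CPM. In PM it was 18.4 CPM, 18.7 CPM, 19.5 CPM and 13.6 CPM, with a mean of 17.5 ± 2.66 CPM. PM was the muscle in which animal 1 was not the highest. In GB the level was 21.1 CPM, 16.2 CPM, 16.5 CPM and 14.1 CPM, with a mean of 17 ± 2.97 CPM. In AD it was 19.8 CPM, 16.9 CPM, 15.4 CPM and 13.7 CPM, with a mean of 16.4 ± 2.57 CPM. The 4 samples of GB and of AD followed the same order of animals except for animals 2 and 3. In RF the level was 20.4 CPM, 14.2 CPM, 12.4 CPM and 13.1 CPM, with a mean of 15.0 ± 3.65 CPM. In SM it was 20.5 CPM, 16.1 CPM, 9.64 CPM and 13.8 CPM, also with a mean of 15.0 CPM, with an SD of 4.53. The SM samples of animals 3 and 4 fell within the range of SS, as did samples of RF, PM, GB and AD.

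In order of mean level FREM2 ran SS, PM, AD, GB, RF, GM, LL, SM and ST. No neighbours in this order that could be tested differed in the quasi-likelihood test of edgeR, whose Benjamini-Hochberg adjusted p (FDR) lay between 0.483 for LL and SM and 0.990 for GB and RF. PM exceeded AD in 4 of 4 animals, by 0.39 ± 0.0282 (SE, n = 4) on the log2 scale within animals, with an FDR of 0.703 in that test. TMEM2 ran ST, LL, GM, PM, GB, AD, RF, SM and SS. LL exceeded GM in 4 of 4 animals by 0.25 ± 0.0908 (SE, n = 4) with an FDR of 0.466, and the FDR of the other tested neighbours lay between 0.787 and 0.985.

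Among the 7 muscles that had no part in choosing the genes, FREM2 spanned 1.45 on the log2 scale, from SM to PM. The joint edgeR quasi-likelihood test of these muscles gave an FDR of 0.0133, which missed the threshold of 0.01. By this test 449 of the 12461 loci, 3.6%, were called, and FREM2 ranked 539th by its p-value. The call was made at an FDR of 0.000359 by the likelihood ratio test of edgeR, of 0.00338 by DESeq2 and of 0.00101 with no filter on low counts. The shares of all loci called in these alternatives are not given here. Without animals 1, 2, 3 and 4 in turn, the quasi-likelihood test missed it, at FDR 0.0264, 0.118, 0.0565 and 0.0925. A fit of only the samples compared also missed it (0.0149).

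Of the 21 pairs of these muscles, FREM2 was called in 1, SM against PM. A pair was called where the FDR did not exceed 0.01 and the levels differed by more than 1 on the log2 scale. At least 1 of the 21 pairs was called for 473 loci, or 3.8% of those tested. FREM2 was lower in SM than in PM in 4 of 4 animals, with a log2FC of -1.45, a level 2.73-fold lower in SM, and an FDR of 0.00203 by edgeR's quasi-likelihood test. Of all loci, 46, or 0.369%, were called lower in SM than in PM. The summed counts behind these levels were 41 in SM (95% Poisson interval 29.4 to 55.6) and 126 in PM (105 to 150), and the sample of animal 3 in SM lay just above that of animal 1 in PM. The call was lost without animal 2 (FDR 0.0386), animal 3 (0.0137) or animal 4 (0.0152), and in a fit of only the 8 samples of SM and PM (0.0131). Without the animal as a block its FDR was 0.0960 in edgeR's quasi-likelihood test.

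The other pairs of FREM2 did not pass. An unadjusted p under 0.05 in edgeR's quasi-likelihood test was seen in 9 of 21 pairs. These pairs share muscles, so they are not independent, and the matching share over all loci is not given here. Whether this count is unusual cannot be told. LL lay below PM in 4 of 4 animals, with a log2FC of -1.03 and an FDR of 0.0493 in edgeR's test. SM lay below AD in 4 of 4 animals, with a log2FC of -1.02 and an FDR of 0.0519. SM was also below GB, GM and RF in 4 of 4 animals, with log2FC of -0.94, -0.69 and -0.92 and FDR of 0.107, 0.191 and 0.0691. The lower level of FREM2 in SM was thus present in every animal against 5 of the 6 other tested muscles, and it passed the threshold against PM.

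TMEM2 spanned 0.58 on the log2 scale among the same 7 muscles, from RF to LL. The joint edgeR quasi-likelihood test gave an FDR of 0.0462, above the threshold of 0.01. By its p-value TMEM2 ranked 1270th of the 12461 loci. Of the 21 pairs 0 were called by edgeR's quasi-likelihood test, by its likelihood ratio test and by DESeq2. An unadjusted p under 0.05 was seen in 7 by the quasi-likelihood test, a count with the same limits as that of FREM2. The lowest FDR of the quasi-likelihood test was that of SM against LL, 0.0176, with a log2FC of -0.57 and a lower level in SM in 4 of 4 animals. RF against LL gave a log2FC of -0.58 and an FDR of 0.0236, again lower in RF in 4 of 4 animals, by 0.57 ± 0.0588 (SE, n = 4) within animals. By the likelihood ratio test the FDR was 0.0094 for SM against LL and 0.00896 for RF against LL, both under 0.01. By DESeq2 these were 0.0110 and 0.0106. No pair of the 7 muscles reached an absolute log2FC of 1 for TMEM2, so none could have been called at that fold whatever its p-value.

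**Figure D2:**
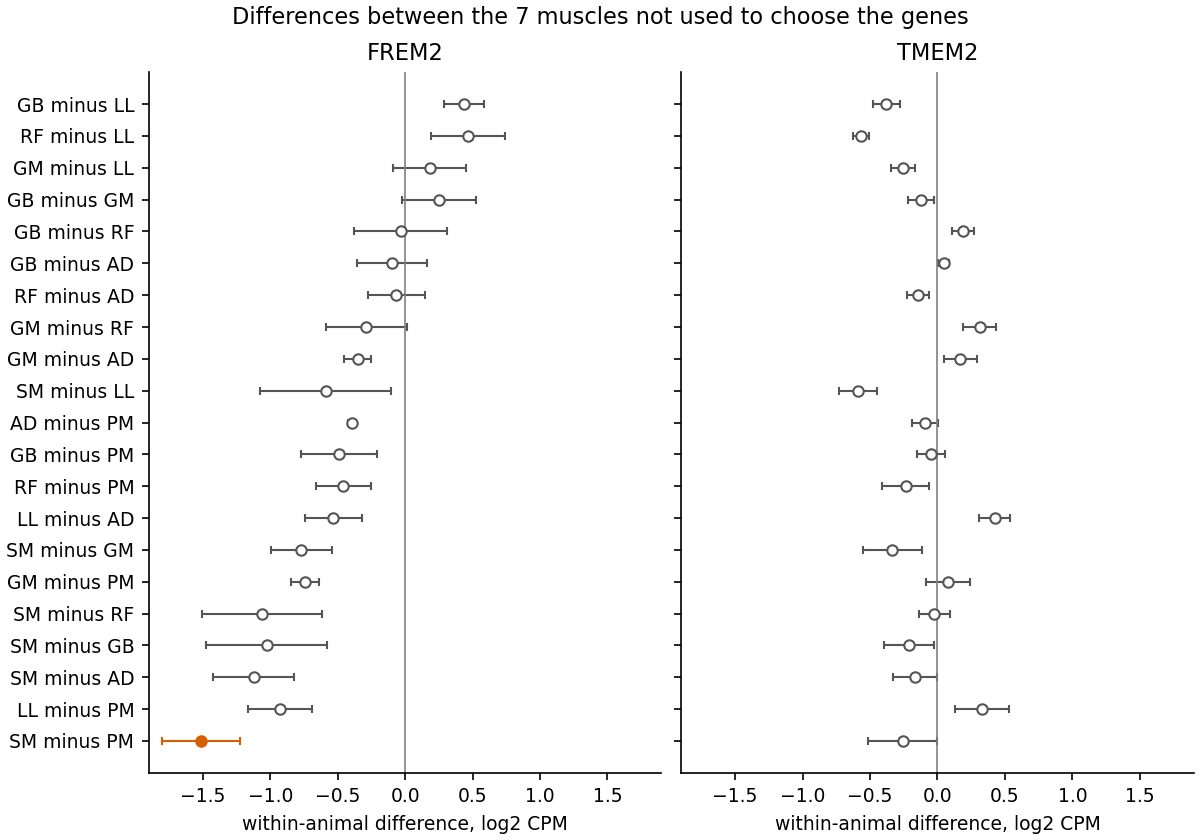
Mean difference within animals in log2 CPM (points) with its SE over 4 animals (bars) for the 21 pairs of the 7 muscles other than ST and SS, FREM2 on the left and TMEM2 on the right. The filled point marks the pair called, FREM2 in SM against PM (FDR 0.00203), and the FREM2 differences that involve SM lie left of 0 while those of TMEM2 stay within 0.59 of 0.

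The animals differed for both genes. FREM2 was lowest on average in animal 1, at 2.12 CPM over its 9 muscles, and highest in animal 3, at 5.25 CPM, with 3.06 and 3.65 CPM in animals 2 and 4. Animal 3 held the highest FREM2 level in 8 of 9 muscles and animal 1 the lowest in 6 of 9. The fitted range among animals was 1.27 on the log2 scale, with an FDR of 3.78e-05 by edgeR's quasi-likelihood test. In the same test 17% of all loci were called. Its 36 samples included those of ST and SS, by which the genes were chosen. Without animal 3 the range was 0.71 and the FDR 0.0447.

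For TMEM2 animal 1 was the highest, at 22.4 CPM on average, and animals 2, 3 and 4 stood close together at 16.7, 15.9 and 15.7 CPM. Animal 1 held the highest TMEM2 level in 8 of 9 muscles. The fitted range was 0.51 with an FDR of 0.000195 by edgeR's quasi-likelihood test, again with ST and SS included. Without animal 1 the range was 0.073 and the FDR 0.846. Libraries of animal 1 had a mean total of 4476590 counts, and those of animals 2, 3 and 4 had 5981790, 5851360 and 6088040, so animal 1 and low depth cannot be told apart. The libraries were run in 4 lanes of 9, and whether a lane held 1 animal is not given in the sources used here, so for both genes differences among animals may also be differences among lanes, which was not tested.

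**Figure D3:**
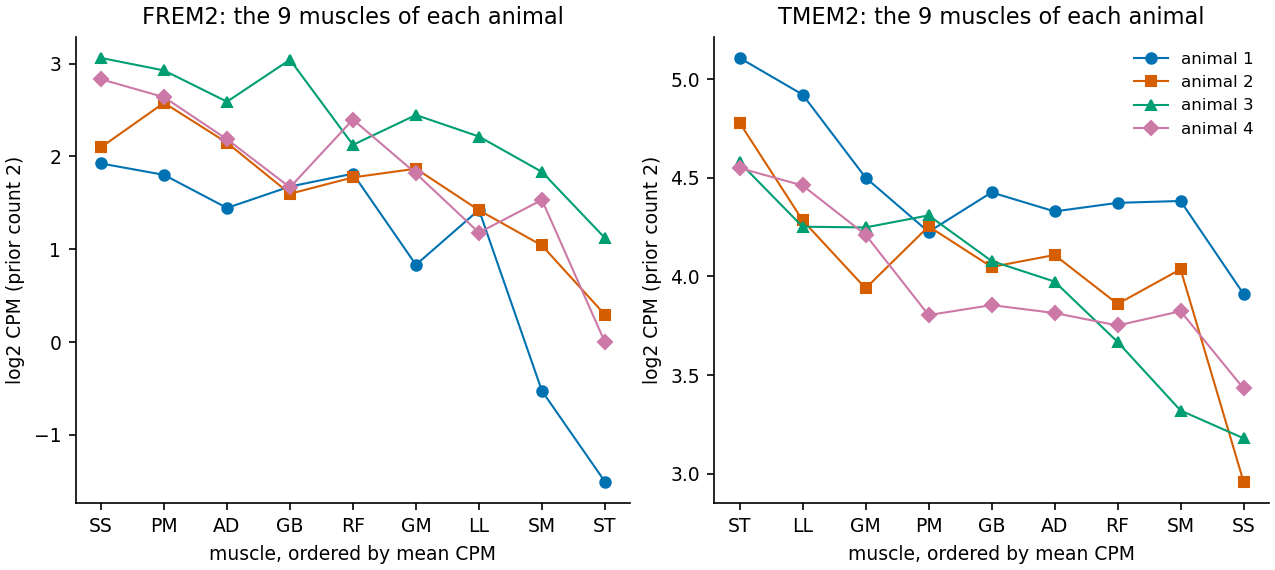
Log2 CPM (prior count 2) of FREM2 (left) and TMEM2 (right) in the 9 muscles of each animal, 1 line per animal, muscles ordered by their mean CPM. ST is lowest for FREM2 and highest for TMEM2 in 4 of 4 animals, animal 3 lies highest for FREM2 in 8 of 9 muscles, and animal 1 lies highest for TMEM2 in 8 of 9 muscles.

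Over all 9 muscles, 61.3% of the total sum of squares of log2 CPM of FREM2 lay between muscles, 26.4% between animals and 12.3% in the rest. Among the 7 muscles these shares were 39.9%, 39.5% and 20.6%. The shares of TMEM2 over 9 muscles were 65.7%, 21.6% and 12.7%. Among the 7 muscles they were 34.7%, 39.7% and 25.6%. Once ST and SS were left out, animals held about as much of the sum of squares of both genes as muscles did. These shares are not scaled for the number of groups, which was 7 muscles but 4 animals.

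Levels of both genes moved in opposite directions over the 36 samples. After removal of each animal's mean, Pearson's r of their log2 CPM was -0.53 and Spearman's rho was -0.48. Over the 28 samples of the 7 other muscles r was 0.05 and rho -0.07, and with an animal left out r ran from -0.19 to 0.25. The opposition over all samples therefore rested on ST and SS, the muscles by which the genes were chosen. These samples share animals and libraries, and no test was made. SM showed low FREM2 without high TMEM2, and LL showed high TMEM2 with FREM2 above that of SM and ST alone in order of mean.

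The slow fibre loci were compared with FREM2. They were the 6 of 9 slow fibre markers that could be paired with a locus, among them TNNT1, TNNC1 and TNNI1, the slow troponin subunits, MYL3, a slow myosin light chain, and ATP2A2, the calcium pump of slow fibres. Their summed level was 119 ± 30.3 CPM in ST, 326 ± 155 CPM in LL and 414 ± 157 CPM in SM (SD, n = 4). It was 469 ± 189 CPM in RF, 550 ± 170 CPM in GM and 582 ± 106 CPM in AD, then 805 ± 143 CPM in GB, 1076 ± 228 CPM in SS and 1292 ± 212 CPM in PM. The study lists these loci among the genes that differ between ST and SS, as it does FREM2. Their shared direction between ST and SS was thus known from that list and supports nothing. Among the 7 other muscles, PM had the highest mean of both FREM2 and the sum, SM had the lowest FREM2 and LL the lowest sum. Pearson's r of FREM2 with the log2 sum, animal means removed, was 0.80 over 36 samples and 0.53 over the 28 samples of the 7 muscles. Without animals 1, 2, 3 and 4 in turn the latter was 0.78, 0.46, 0.49 and 0.44. The 95th percentile of r between FREM2 and all loci over the same 28 samples was 0.46, and 3 of the 6 loci lay below it, TNNT1 (0.45), TNNC1 (0.39) and MYOZ2 (0.22). For TMEM2 the values were -0.65 and -0.22, and the latter ran from -0.46 to 0.07 with an animal left out. The part of slow fibre content in the FREM2 differences was not tested. Of 9 fast fibre markers only PVALB could be paired, and of the fibroblast, endothelial, adipocyte and other markers none could.

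**Figure D4:**
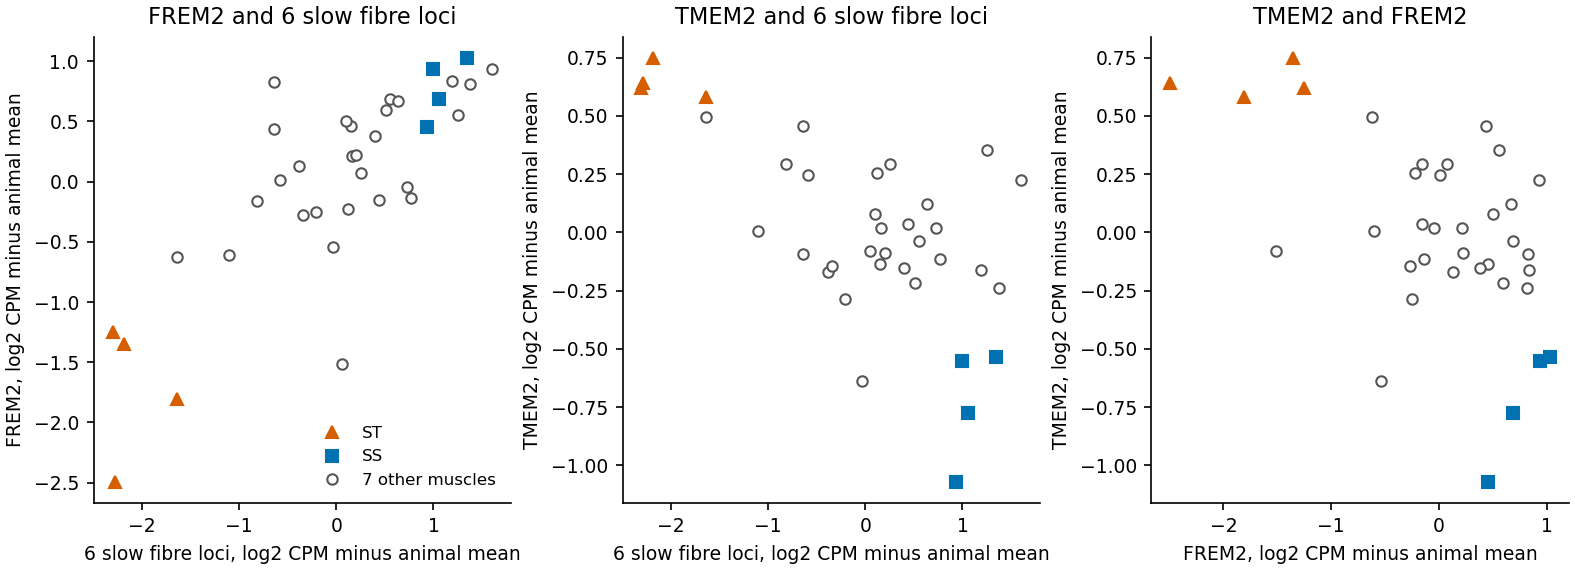
Log2 CPM minus the animal mean for FREM2 against the sum of 6 slow fibre loci (left), TMEM2 against the same sum (middle) and TMEM2 against FREM2 (right), 1 point per sample, ST as triangles, SS as squares and the 28 samples of 7 other muscles as open circles. Over the open circles r was 0.53, -0.22 and 0.05.

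Over the 36 samples with animal means removed, the locus whose pattern was most like that of FREM2, among 12460 others, was ATP2A2, with r = 0.82, and MYL3 (0.80) and TNNT1 (0.77) ranked 3rd and 5th. These ranks include ST and SS, and names could be given only to loci at positions that the study lists for genes differing between muscles, so the ranks were in part fixed by that choice. Over the 28 samples of the 7 other muscles the r values were 0.67, 0.54 and 0.45, at percentiles 99.7, 97.8 and 94.3 of all loci. ATP2A2 was not the first there. CLIP4, another listed gene, had a slightly higher r of 0.67 at the same rounded percentile, and other loci lay above both. TNNT1 lay below the 95th percentile of 0.46. Ranks 2 and 4 over the 36 samples went to loci with no name here, ENSOARG00000019316 on chromosome 7 (0.80) and ENSOARG00000002785 on chromosome 13 (0.79). Over the 28 samples their r was 0.56 and 0.51. The locus least like FREM2 was ENSOARG00000004694 on chromosome 23, from 4101995 to 4138549, with -0.76 and -0.50.

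For TMEM2 the most similar locus was ENSOARG00000014564 on chromosome 8, from 58399273 to 58764616, with r = 0.82 over 36 samples and 0.60 over 28. The next, ENSOARG00000005819 on chromosome 15, from 35388861 to 36106015, kept 0.75 of its 0.77 without ST and SS. The least similar was ENSOARG00000005814 on chromosome 22, from 15995348 to 16019759, with -0.74 and -0.46. Samples share animals and libraries in these correlations, and the 36 samples include the muscles used to choose the genes.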

How the data were processed

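Muscle RNA was sequenced by the authors as paired-end reads, who aligned reads to Oar_v3.1 with TopHat2 2.0.13, assembled them with Cufflinks 2.2.1 and deposited whole-number counts per locus from htseq-count, without normalization. Which lane held which library, and whether counting used strand, are not given in the sources used here. Of 31530 entries, 31136 distinct loci were kept once each. Pairs of samples of 1 muscle differed beyond counting noise (chi-square per degree of freedom of at least 6.50 over 54 pairs). FREM2 and TMEM2 were found by position, and other names by positions that the study lists (26 of 38 matched 1 locus).

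Analysis used R 4.3.3 and edgeR 4.0.16. Loci were filtered with filterByExpr by muscle (12461 kept), scaled by TMM and fitted over 36 samples with muscle and animal as terms. Quasi-likelihood tests were adjusted by Benjamini-Hochberg, with calls at FDR of at most 0.01 and, for pairs, absolute log2FC above 1. Log2 CPM used a prior count of 2. Animal is a block because the muscles of an animal share its number: deviations of samples of the same animal correlated at a mean r of 0.236 over 144 pairs, against -0.0777 over 432 pairs of different animals and muscles. The latter is no independent comparison, since removal of each muscle's mean over its animals pushes it below 0. Scripts were tested on simulated data. Alternatives were the likelihood ratio test, DESeq2 1.42.0, other scalings, filters and thresholds, no block, fewer samples and each animal left out. The members, lists and tests were chosen with earlier results of these data known. Named loci were both genes, their nearest neighbours and, by a fixed rule, the 5 loci with the highest and the 3 with the lowest correlation with each, of which unnamed ones are printed for at most 2 at each end. Lists of 95 genes of matrix pathways could not be paired with loci (0 matched), so their counts are not given, and no sequences are shown.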

Additional observations from a re-analysis of the deposited data

Results flagged for a closer look

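FREM2 in GB stood apart in animal 3, at 7.89 CPM from 41 counts, against 2.68 to 2.84 CPM in the other 3 animals. The gap to the nearest sample was 0.968 of the whole range of the muscle, above Dixon's 95% critical value for 4 samples. This ratio does not allow for counting error, which was larger than the gaps among the other GB samples. FREM2 in GB was the one group so marked of 18 checked (9 muscles for each gene), and chance marks about 1 in 20 groups. TMEM2 in the GB sample of animal 3 was 16.5 CPM, within the 14.1 to 21.1 CPM of the other GB samples. The summed slow fibre loci in this sample were 964 CPM, the highest of GB, against 619 to 837 CPM in the others, and their part in the FREM2 value was not tested. Animal 3 also held the highest FREM2 level in 7 of the 8 other muscles.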

How the results depend on the processing

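Values below are log2 ranges or numbers of called pairs. For FREM2 among the 7 muscles, missed at an FDR of 0.01, the range passed with the likelihood ratio test (1.44), no filter (1.48), DESeq2 (1.48) and an FDR of 0.05 (1.45). It missed the FDR of 0.01 with each animal left out and when only the samples compared were fitted. FREM2 was called in 2 of 21 pairs by the likelihood ratio test and at an FDR of 0.05 (LL against PM being added), in 0 with no replicate block, in 0 when only the samples compared were fitted, and in 0 to 1 with each animal left out. The TMEM2 range of 0.58 passed at an FDR of 0.05 (0.0462 by edgeR's quasi-likelihood test). TMEM2 ranked only 1270th of 12461 loci by that test, and the share of all loci passing at 0.05 is not given here. The TMEM2 range also passed at 0.05 by the likelihood ratio test and by DESeq2. Other size factors, a mean of at least 10 counts and leaving out animal 2 kept the pass. It was lost without the 4 most counted loci (0.0532), with no filter (0.143) and with only the samples compared (0.0752). Without animals 1, 3 and 4 in turn the FDR was 0.152, 0.230 and 0.313. With each animal left out, the range among animals was 0.71 to 1.28 for FREM2 and 0.073 to 0.51 for TMEM2, losing the call without animal 3 and without animal 1, respectively. With no replicate block the ranges among the 7 muscles were 1.43 (FDR 0.337) and 0.58 (FDR 0.425) in edgeR's quasi-likelihood test. Except for those named, results among the 7 muscles and among animals kept their side of the FDR of 0.01 with other size factors, without the 4 most counted loci and at a mean of at least 10 counts. The alternatives for the matrix pathway lists were not run, since no listed gene could be paired with a locus. The low counts of FREM2 in ST and SM limit its precision there. Correlations with a prior count of 0.5, or with an animal left out, were added after the data were seen.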
